A study of Mus musculus with 6 samples.

Results

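A set of 10 surface receptors that mark blood progenitors or carry the signals of the cytokines that feed them, Kit, Cd34, Flt3, Procr, Csf1r, Csf2ra, Csf2rb, Il3ra, Csf3r and Il6ra, were followed in mouse bone marrow cells in which Rad21, part of the cohesin ring that folds chromatin, had been targeted by shRNA. The genes were taken from a written list, and every probe set annotated to exactly one of them was used. All 10 were on the array, with 15 probe sets among 20380 that carry 1 gene, and they are 10 of 12393 genes measured. Of these, 4 genes had more than 1 probe set, and each gene is represented below by its brightest one unless another is named.

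The 3 groups had 2 arrays each. C57/BL6 animals, 6 to 8 weeks old, gave the marrow, from which lineage-positive cells were removed before it was exposed for 24 h to lentivirus carrying no shRNA (Empty Vector), Rad21 shRNA #1 or Rad21 shRNA #2, selected with puromycin at 1 µg/mL, sorted for live cells and plated at 10000 cells per mL in methylcellulose with cytokines, so all groups share the virus, the drug and the culture. RNA was taken on day 7. The control carried an empty vector and not a shRNA against another target, and no source used here names the cytokines, the promoter of the shRNAs or a separate animal or culture for each replicate. A p-value here therefore reflects array-to-array spread alone, and that spread may be technical.

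These receptors are read in blood research as a map of where a cell stands. KIT, the receptor tyrosine kinase for stem cell factor, is high on stem and progenitor cells and is kept by mast cells, while FLT3 and the sialomucin CD34 mark other early stages and PROCR, the endothelial protein C receptor, marks stem cells. The receptors for CSF1 and for G-CSF (CSF3R) drive macrophage and neutrophil growth. GM-CSF and IL-3 are each bound by a private alpha chain, CSF2RA or IL3RA, that pairs with the shared beta chain CSF2RB, and IL-6 is bound by IL6RA together with the signalling chain IL6ST (gp130).

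The targeted gene was checked first. Rad21 is read here from the brightest of its 3 probe sets. Its log2 intensity was 11.14 and 10.49 for empty vector, 9.63 and 9.14 for shRNA1, and 9.50 and 9.11 for shRNA2. All 4 shRNA arrays lay below both controls, but the difference of -1.47 ± 0.26 (SE of the limma fit, 4 against 2 arrays) missed the threshold (adjusted p = 0.0558, and 0.0166 with the replicate number as a block, range over all alternatives 0.00721 to 0.203). Without empty-vector replicate 1 the difference was -1.15, and without replicate 2 it was -1.80. The other Rad21 probe sets differed by -1.78 and -0.43. On the first of these every shRNA array lay below both controls. The second, the dimmest, read 6.64 and 7.13 on the controls and 6.10 to 6.86 on the shRNA arrays, so it overlapped the controls. Array medians ran from 100.2 to 104.9 on the linear scale. Empty-vector replicate 1 stood apart, since its Gapdh control probe sets differed by 2.42 log2 units between the 3′ and 5′ ends of the transcript against -0.078 to 0.017 on the other 5 arrays. Differences of genes with both shRNAs are therefore also given without it below where their sign or call changes.

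Among the 10 receptors, 1 fell and none rose when both shRNAs were compared with empty vector, at a Benjamini-Hochberg adjusted p under 0.05 over all genes in limma, where 2.13% of all genes passed (0.734% higher and 1.4% lower). Kit was the one that fell. The count depended on which arrays were fitted. It fell when any shRNA array was left out and rose when either control was left out. The count over all genes moved the same way in each of these fits. Each such fit leaves 1 array in a group. With a control left out, the spread is estimated from the shRNA arrays alone, which lay closer together than the controls. A pass in such a fit, here and below, therefore does not mark a firmer result. An unadjusted p under 0.05 was reached by 5 of the 10, against 16.7% of all genes. All 4 shRNA arrays lay above both controls for 2 receptors, Csf1r and Csf3r, and below both for 2, Kit and Il3ra, against 11.5% and 13.6% of all genes. The median difference of the 10 was 0.52, compared with -0.023 over all genes. For shRNA1 alone no receptor passed in limma, where 0.234% of all genes passed (0.0968% higher and 0.137% lower), and 5 had an unadjusted p under 0.05 against 9.3% of all genes. For shRNA2 alone 1 rose, Cd34, where 2.83% of all genes passed (0.88% higher and 1.95% lower), and 6 had an unadjusted p under 0.05 against 17.8%. Taken by probe set, none of the 15 passed in any comparison. Over all probe sets 0.927% passed with both shRNAs (0.265% higher, 0.662% lower), 0.054% with shRNA1 (0.0147% higher, 0.0393% lower) and 1.51% with shRNA2 (0.402% higher, 1.11% lower). The 3 comparisons with empty vector share its 2 arrays. The arrays of the group did not overlap the controls for 5 receptors with shRNA1, 3 above and 2 below (15.2% and 19.5% of all genes), and for 6 with shRNA2, 3 above and 3 below (21.6% and 22.6%).

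**Figure D1:**
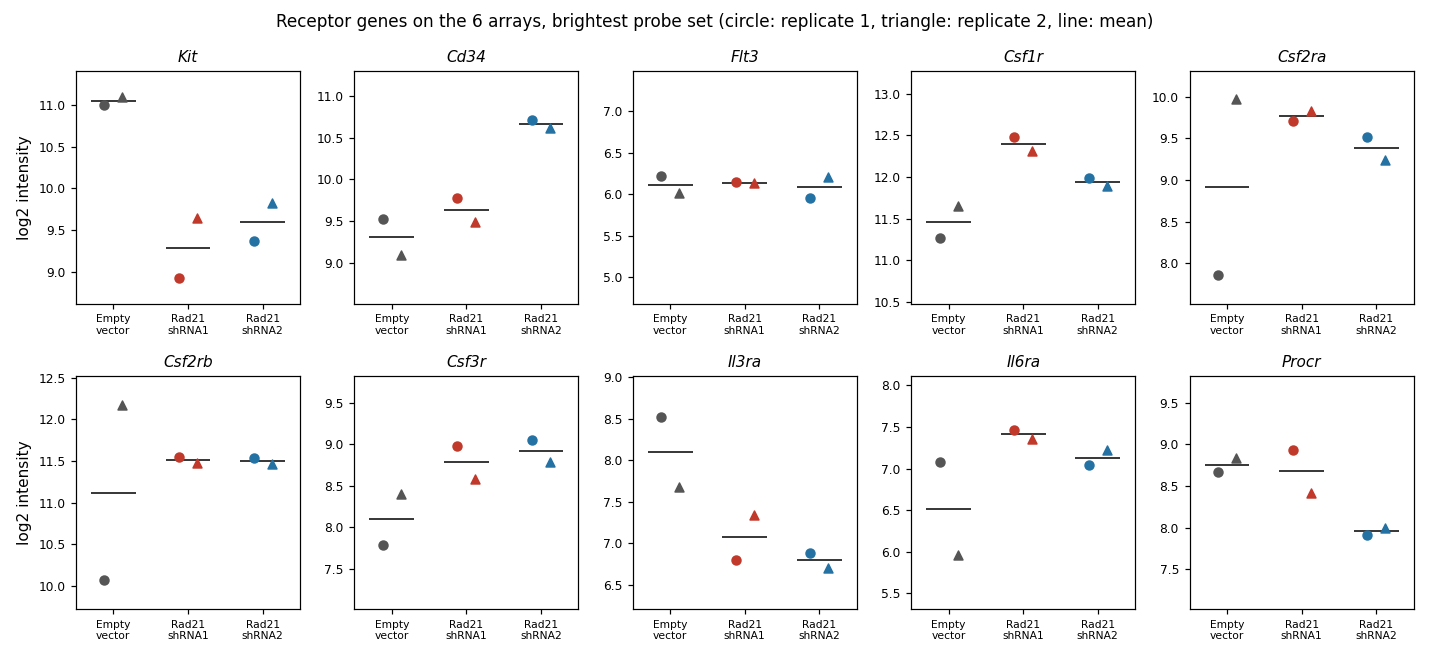
Log2 intensity (vertical axis, 2.8 units tall in every panel) of the brightest probe set of each receptor gene on the 6 arrays, by group, with circles for replicate 1, triangles for replicate 2 and a line at the mean of the 2 arrays. Kit is lower on all shRNA arrays, Cd34 is highest with shRNA2, and for Csf2ra and Csf2rb the empty-vector replicate 1 lies far below replicate 2.

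Kit read 10.996 and 11.10 on the empty-vector arrays, 8.93 and 9.65 with shRNA1 and 9.37 and 9.82 with shRNA2. The controls were nearly equal, and the highest shRNA array lay more than 1 log2 unit below both. As a percentage of the empty-vector geometric mean, the 4 shRNA arrays stood between 23.0% and 42.7%, with a mean of 32.8%. Kit fell by 1.61 on the log2 scale with both shRNAs (-1.61 ± 0.25, 3.05-fold lower, 95% interval -2.21 to -1.0, adjusted p = 0.0412, range over alternatives 0.0209 to 0.225). The difference was -1.76 ± 0.29 with shRNA1 (adjusted p = 0.110) and -1.45 ± 0.29 with shRNA2 (adjusted p = 0.0644, and 0.0320 with the replicate number as a block). The size barely depended on either control, at -1.66 without empty-vector replicate 1 and -1.56 without replicate 2. The call was lost when an shRNA array was left out. The adjusted p was then 0.127 (shRNA1 replicate 1), 0.0564 (shRNA1 replicate 2), 0.182 (shRNA2 replicate 1) or 0.132 (shRNA2 replicate 2). It was also lost in 4 other settings, without the dimmer 50% of genes (0.0510), with quantile normalization (0.0530), with an offset of 50 added before log2 (0.0926) and with estimated array weights (0.225), and when p was adjusted over all 20380 probe sets (0.0637). In all, 8 of 16 alternatives kept the call. The second, dimmer Kit probe set moved the same way, from 6.91 and 7.62 in the controls to between 5.75 and 6.50 on the shRNA arrays, a difference of -1.07 ± 0.24 (adjusted p = 0.125).

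KIT is also a surface marker of mast cells and of early red cell and platelet precursors, so their genes are given beside it. Of 14 mast cell and basophil genes measured, 2 fell with both shRNAs and none rose, with a median difference of -0.98. Over all genes 1.4% fell and 0.734% rose. Their summed linear intensity was 41830 and 57093 on the controls and ran from 25700 to 35408 on the shRNA arrays, without overlap. Cpa3, the mast cell carboxypeptidase, differed by -0.11 ± 0.17 (adjusted p = 0.814), while Fcer1a, a chain of the IgE receptor, fell by 2.04 (adjusted p = 0.0272), and both are named after their values were seen. The sum over 8 megakaryocyte genes was 20658 and 18597 on the controls and 7873 to 14855 on the shRNA arrays. The sum over 11 erythroid genes was 14442 on empty-vector replicate 1, 5071 on replicate 2 and 4206 to 4650 on the shRNA arrays. It stood apart on empty-vector replicate 1, the array with the Gapdh gap. The part of these cell types in the Kit difference was not tested. In bulk RNA, fewer cells of a type and less RNA per cell cannot be told apart.

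Cd34 ran the other way. It read 9.53 and 9.09 on the controls, 9.78 and 9.49 with shRNA1 and 10.72 and 10.62 with shRNA2. Both shRNA2 arrays lay above all others, at 265% and 247% of the control mean, while the shRNA1 arrays, at 138% and 113%, overlapped the controls. With shRNA2 Cd34 rose by 1.36 ± 0.21 (2.56-fold, 95% interval 0.84 to 1.87, adjusted p = 0.0358, range over alternatives 0.0107 to 0.283). The call was lost without shRNA1 replicate 1 or 2 (adjusted p = 0.0863 in each case, since the spread is then estimated from fewer arrays) and without shRNA2 replicate 1 (0.283) or 2 (0.232). It was also lost with the offset of 50 (0.0688), with array weights (0.0640) and when only shRNA2 and empty vector were fitted (0.0863). With shRNA1 the difference was 0.32 ± 0.21 (95% interval -0.19 to 0.83, adjusted p = 0.694). With both shRNAs together it was 0.84 ± 0.18 (adjusted p = 0.0916). It was 1.06 without empty-vector replicate 1 and 0.62 without replicate 2. Both passed, with the spread taken from the shRNA arrays alone.

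The stretch just before the start of these 2 genes, the only receptors with a call, is shown to place them in the genome. Both are the 250 bases before the RefSeq start, written on the plus strand of GRCm38.p6, at chr5:75574737-75574986 for Kit and chr1:194938571-194938820 for Cd34. Capitals mark matches to any of 4 short motifs of blood transcription factors, searched on both strands.
Kit: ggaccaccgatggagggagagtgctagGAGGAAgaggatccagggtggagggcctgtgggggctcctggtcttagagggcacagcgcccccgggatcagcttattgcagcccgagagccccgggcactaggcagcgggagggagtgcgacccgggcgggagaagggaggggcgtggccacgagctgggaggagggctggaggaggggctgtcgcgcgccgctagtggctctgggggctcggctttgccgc
Cd34: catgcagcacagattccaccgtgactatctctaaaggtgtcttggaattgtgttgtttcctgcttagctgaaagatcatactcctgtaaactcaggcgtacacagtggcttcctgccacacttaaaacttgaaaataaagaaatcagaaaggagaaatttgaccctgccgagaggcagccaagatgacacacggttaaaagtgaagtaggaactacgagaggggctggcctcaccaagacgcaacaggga
The motifs were GATAA for GATA factors, GAGGAA for PU.1 and related ETS factors, TGTGGT for RUNX and TTNNGNAA for C/EBP. Of all 32851 windows of this length, 22.6%, 23.3%, 14% and 36.8% hold them. Kit had 1 match, to GAGGAA, beginning 223 bases before the start and overlapping no other motif, and Cd34 had no match to these letters in this window. Windows of 8 of the 10 receptor genes were searched, and Csf1r and Csf2rb were not among them. Of these 8, 1 held GATAA, 4 held GAGGAA, 0 held TGTGGT and 4 held TTNNGNAA. A match is a description of the letters and was not tested as a binding site.

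Flt3, the receptor for FLT3 ligand on early lymphoid and myeloid progenitors, was dim and flat. Its 6 values lay between 5.95 and 6.21, and the groups overlapped throughout. The difference with both shRNAs was -0.0034 ± 0.15 (95% interval -0.36 to 0.36, adjusted p = 0.994). Its mean lay at a percentile of 37.4 among all genes. Its ligand gene, Flt3l, was annotated on this array to a probe set shared with another gene and is given no value.

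Procr read 8.67 and 8.84 on the controls, 8.93 and 8.42 with shRNA1 and 7.91 and 8.00 with shRNA2. As for Cd34, shRNA2 stood apart, here below every other array, while shRNA1 straddled the controls. The difference was -0.80 ± 0.21 with shRNA2 (95% interval -1.32 to -0.28, adjusted p = 0.129) and -0.077 ± 0.21 with shRNA1 (adjusted p = 0.934), and neither passed. Its single probe set carries the suffix of sets whose probes can match more than 1 transcript.

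Csf1r, the receptor for CSF1 and IL-34 on monocytes and macrophages, was among the brightest genes. It read 11.27 and 11.65 on the controls, 12.48 and 12.31 with shRNA1 and 11.99 and 11.89 with shRNA2. The 3 groups were ordered without overlap, with shRNA1 highest, then shRNA2, then the controls. Its difference was 0.71 ± 0.16 with both shRNAs (1.63-fold, 95% interval 0.31 to 1.10, adjusted p = 0.102, range 0.0105 to 0.377), 0.94 ± 0.19 with shRNA1 (adjusted p = 0.170) and 0.48 ± 0.19 with shRNA2 (adjusted p = 0.260). None of these passed, apart from fits without empty-vector replicate 2, in which all 3 did (0.90, 1.12 and 0.67) against the array with the Gapdh gap as the only control. All 3 Csf1r probe sets showed the shRNA arrays above both controls, by 0.71, 0.86 and 0.82. The sum over 15 other macrophage genes did not follow it, at 18122 and 39291 on the controls, 31559 and 34395 with shRNA1 and 22407 and 22297 with shRNA2. In this sum, which bright genes weigh most, all shRNA arrays lay between the controls. The mean log2 intensity of the same genes was 8.50 and 9.01 on the controls and 8.80 and 8.87 with shRNA1. It was 7.96 and 8.03 with shRNA2, below both controls. Of these 15 genes 1 rose and 2 fell with both shRNAs, with a median difference of -0.29, where 0.734% of all genes rose and 1.4% fell. With shRNA2 alone 1 rose and 4 fell, with a median of -1.04, where 0.88% of all genes rose and 1.95% fell. With shRNA1 alone none passed, with a median of 0.0057.

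The alpha chain Csf2ra and the beta chain Csf2rb, which together bind GM-CSF, gave no usable comparison with the controls. Csf2ra read 7.86 on empty-vector replicate 1 and 9.97 on replicate 2, with 9.71 and 9.83 for shRNA1 and 9.52 and 9.24 for shRNA2. Csf2rb read 10.07 and 12.17 on the controls, 11.55 and 11.48 with shRNA1 and 11.53 and 11.47 with shRNA2. In both genes the shRNA arrays lay between the 2 controls, which differed from each other by 2.11 and 2.09, more than in 99.1% of genes in each case. The differences with both shRNAs were 0.66 ± 0.55 for Csf2ra (95% interval -0.69 to 2.01, adjusted p = 0.618) and 0.39 ± 0.54 for Csf2rb (-0.95 to 1.72, adjusted p = 0.791). Without empty-vector replicate 1 they turned to -0.39 and -0.66, and without replicate 2 they were 1.72 and 1.43 and passed, so 1 control decides their sign. With shRNA2 alone Csf2rb passed in opposite directions, at -0.67 without replicate 1 (adjusted p = 0.0468) and at 1.43 without replicate 2 (0.00424).

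The other Csf2ra probe set gave the opposite picture. It read 8.02 and 7.49 on the controls and 7.04 to 7.78 on the shRNA arrays, a difference of -0.36 ± 0.21 (adjusted p = 0.482), and on it empty-vector replicate 1 was the highest array. Mice carry a close copy of the beta chain, Csf2rb2, which serves IL-3 only, and signals of the 2 copies may not be fully separated. Csf2rb2 read 11.16 and 12.91 on the controls and 11.84 to 12.48 on the shRNA arrays, again between the controls (0.20 ± 0.48, adjusted p = 0.895). Without empty-vector replicate 1 it was -0.68, and without replicate 2 it passed at 1.07. A probe set annotated to both copies read 8.72 and 9.50 on the controls and 8.31 to 8.76 on the shRNA arrays. Among the 4 shRNA arrays alone, Csf2rb lay between 11.47 and 11.55.

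Il3ra, the private alpha chain of the IL-3 receptor, lay below both controls on every shRNA array. It read 8.52 and 7.67 on the controls, 6.80 and 7.35 with shRNA1 and 6.88 and 6.71 with shRNA2. The shRNA arrays stood at 38.3% to 59.6% of the control mean and did not overlap the controls, although the controls themselves differed by 0.84. The difference was -1.16 ± 0.28 with both shRNAs (2.23-fold lower, 95% interval -1.86 to -0.46, adjusted p = 0.120, range 0.00857 to 0.387), -1.02 ± 0.33 with shRNA1 (adjusted p = 0.414) and -1.30 ± 0.33 with shRNA2 (adjusted p = 0.114), and none passed. Without empty-vector replicate 1 the value with both shRNAs was -0.74, and without replicate 2 it was -1.58 and passed. The mast cell and basophil sums given beside Kit, from cells that respond to IL-3, were also lower on all shRNA arrays, and their part was not tested.

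Csf3r, the G-CSF receptor of the neutrophil line, read 7.79 and 8.40 on the controls, 8.98 and 8.59 with shRNA1 and 9.05 and 8.79 with shRNA2. All 4 shRNA arrays lay above both controls, the nearest at 8.59 against 8.40. The difference was 0.75 ± 0.23 with both shRNAs (1.68-fold, 95% interval 0.19 to 1.31, adjusted p = 0.189, range 0.0177 to 0.542), 0.69 ± 0.26 with shRNA1 and 0.82 ± 0.26 with shRNA2, and none passed. It was 0.45 without empty-vector replicate 1, and it passed without replicate 2, at 1.06. Of 15 neutrophil genes measured, 6 rose and none fell with both shRNAs, against 0.734% and 1.4% of all genes, with a median difference of 2.06. Their summed intensity was 43160 and 30221 on the controls and 70866 to 93377 on the shRNA arrays. The Csf3r difference was smaller than that list's median, and the part of the neutrophil line in it was not tested.

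Il6ra, the binding chain for IL-6, read 7.07 and 5.96 on the controls, 7.46 and 7.35 with shRNA1 and 7.04 and 7.22 with shRNA2. The shRNA1 arrays lay above both controls, while shRNA2 overlapped empty-vector replicate 1. The difference with both shRNAs was 0.75 ± 0.31 (95% interval -0.0092 to 1.51, adjusted p = 0.304, range 0.0139 to 0.669). Without empty-vector replicate 1 it was 1.31 and passed, and without replicate 2 it was 0.20. With shRNA1 the difference was 0.89 ± 0.36 (adjusted p = 0.526), and with shRNA2 it was 0.61 ± 0.36 (adjusted p = 0.459). Without empty-vector replicate 1 these 2 differences were 1.45 and 1.17. A second, dimmer probe set was steadier, at 6.27 and 6.21 on the controls and 6.65 to 6.82 on the shRNA arrays, above both controls on all 4 (0.48 ± 0.13, adjusted p = 0.178).

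**Figure D2:**
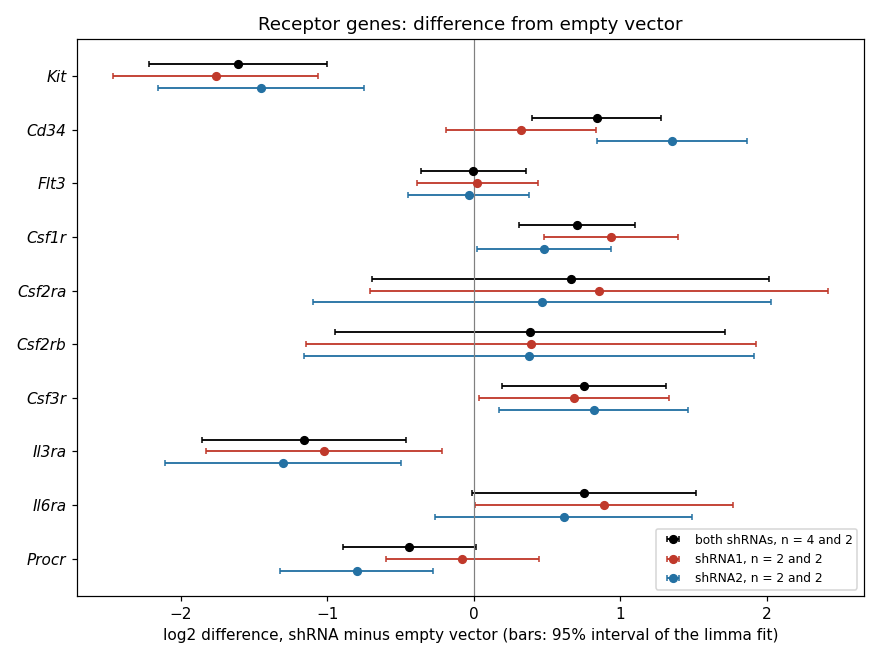
Log2 difference from empty vector (horizontal axis) for each receptor gene with both shRNAs (black, 4 against 2 arrays), shRNA1 (red, 2 against 2) and shRNA2 (blue, 2 against 2), with bars for the unadjusted 95% interval of the limma fit. Kit lies lowest at -1.61 with both shRNAs, Cd34 separates by shRNA, and the intervals of Csf2ra and Csf2rb are widest.

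**Figure D3:**
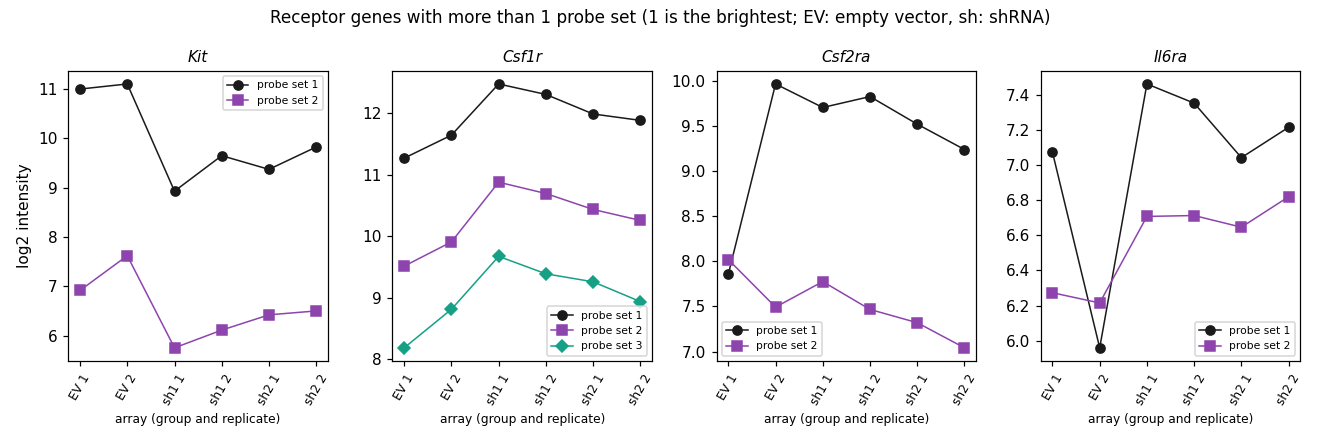
Log2 intensity (vertical axis) on the 6 arrays (horizontal axis, EV for empty vector and sh1 or sh2 for the shRNAs, with the replicate number) for the 4 receptor genes with more than 1 probe set, the brightest drawn in black. The sets of Csf1r run nearly in parallel, whereas those of Csf2ra and Il6ra part on the empty-vector arrays. Both Kit sets are lower on every shRNA array, but replicate 1 minus replicate 2 of the controls is -0.10 on the brighter and -0.70 on the dimmer.

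No receptor differed between shRNA1 and shRNA2 in limma, in which 0% of all genes passed. An unadjusted p under 0.05 was reached by 2 of 10, Cd34 and Procr, against 4.89% of all genes. Cd34 was lower with shRNA1 by -1.03 ± 0.21 (95% interval -1.54 to -0.52, adjusted p = 0.427, and 0.0360, past the threshold, with estimated array weights). Procr was higher with shRNA1 by 0.72 ± 0.21 (95% interval 0.20 to 1.24, adjusted p = 0.699). Kit differed by -0.31 ± 0.29 (95% interval -1.01 to 0.39) and Il3ra by 0.28 ± 0.33 (-0.53 to 1.08), so a difference of up to 1 log2 unit between the shRNAs remains possible for both. The shRNA1 arrays did not overlap the shRNA2 arrays for 5 receptors, 4 above and 1 below (17.7% and 23.9% of all genes).

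**Figure D4:**
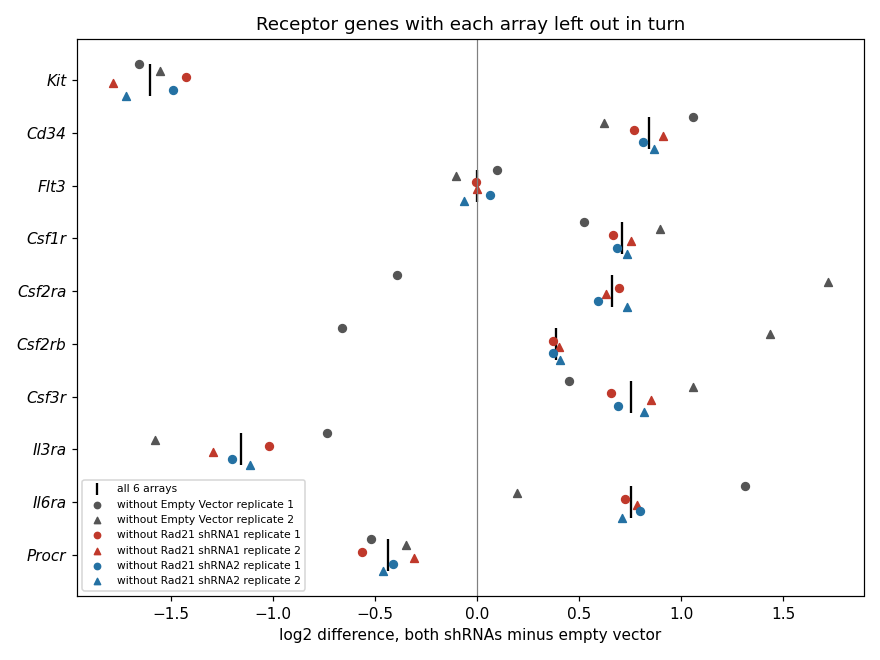
Log2 difference of both shRNAs from empty vector (horizontal axis) for each receptor gene with all 6 arrays (black bar) and with each array left out in turn (points, coloured by the group of the array left out, circles for replicate 1 and triangles for replicate 2). Kit stays between -1.79 and -1.43, while Csf2ra runs from -0.39 to 1.72 with the control that is left out.

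Of 11 ligand genes of these and related receptors measured in the same cells, 1 fell with both shRNAs, Csf1, and none rose. Over all genes 1.4% fell and 0.734% rose. Csf1, the ligand of the CSF1 receptor, read 10.59 and 10.92 on the controls, 9.25 and 9.52 with shRNA1 and 8.47 and 8.06 with shRNA2. Every shRNA array lay more than 1 log2 unit below both controls, and shRNA2 lay below shRNA1. Csf1 fell by 1.93 with both shRNAs (-1.93 ± 0.19, adjusted p = 0.0144, range 0.00480 to 0.0832) and by more with shRNA2 (-2.49, adjusted p = 0.0107), and with shRNA1 it differed by -1.37 (adjusted p = 0.105). The call with both shRNAs was lost without shRNA1 replicate 1 (0.0832) and without shRNA2 replicates 1 (0.0655) or 2 (0.0777) and with array weights (0.0677), and the call with shRNA2 was lost without its replicate 1 (0.0951) or 2 (0.0973). Between the shRNAs Csf1 differed by 1.12, which did not pass (adjusted p = 0.419). All 4 Csf1 probe sets were lower on every shRNA array, by -1.08 to -2.36. Csf1 and its receptor thus stood on opposite sides of the controls on every shRNA array, although the receptor did not pass.

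For IL-6, the ligand did not pass and the signalling chain fell on 1 of its 3 probe sets. Il6 read 11.85 and 12.14 on the controls, 10.09 and 11.08 with shRNA1 and 8.88 and 10.17 with shRNA2 (-1.94 ± 0.43, adjusted p = 0.100, and 0.0271 with the replicate number as a block, range 0.0271 to 0.433). Il6st read 9.39 and 9.54 on the controls, 7.96 and 8.82 with shRNA1 and 6.02 and 6.79 with shRNA2. All shRNA arrays lay below the controls in both genes, with shRNA2 lowest for Il6st. Il6st fell by 2.07 with both shRNAs (-2.07 ± 0.32, adjusted p = 0.0412, range 0.0167 to 0.238) and by more with shRNA2 (-3.06, adjusted p = 0.0199, lost at 0.154 and 0.0973 without its replicates 1 and 2), and with shRNA1 it differed by -1.08 (adjusted p = 0.440). The difference between the shRNAs, 1.99, did not pass (adjusted p = 0.340). This rests on the brightest of 3 Il6st probe sets, since the others differed by -0.58 and 0.00083 and overlapped the controls, and the mean of all 3 gave -0.88 without a call. The call with both shRNAs was also lost when any shRNA array was left out, with 0.138 (shRNA1 replicate 1), 0.0641 (shRNA1 replicate 2), 0.154 (shRNA2 replicate 1) and 0.100 (shRNA2 replicate 2), and with quantile normalization (0.0529), the offset of 50 (0.0927) or array weights (0.238). With shRNA2 alone it was lost with the mean of probe sets (-1.39, 0.0593), the offset (0.0594) or array weights (0.0657).

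GM-CSF and IL-3 transcripts were highest in 1 control. Csf2 read 7.08 and 9.04 on the controls and 5.48 to 6.24 on the shRNA arrays (-2.19 ± 0.52, adjusted p = 0.114, range 0.00531 to 0.382). Il3 read 5.61 and 9.10 on the controls and 3.87 to 4.36 on the shRNA arrays (-3.28 ± 0.89, adjusted p = 0.152, range 0.00258 to 0.469). Both were below the controls on every shRNA array and neither passed with all 6 arrays, while each passed without either control (-3.17 and -1.21 for Csf2, -5.02 and -1.53 for Il3, without empty-vector replicates 1 and 2). Kitl, the KIT ligand, lay between 4.90 and 5.38 and Csf3 between 4.89 and 5.20 on all arrays, with overlapping groups. Il5ra, the IL-5 alpha chain that shares CSF2RB, read 4.92 and 4.43 on the controls and 4.80 to 5.69 on the shRNA arrays (0.56 ± 0.18, adjusted p = 0.206), and it passed without empty-vector replicate 1 (0.80). The median difference of the 11 ligand genes was -0.27.

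**Figure D5:**
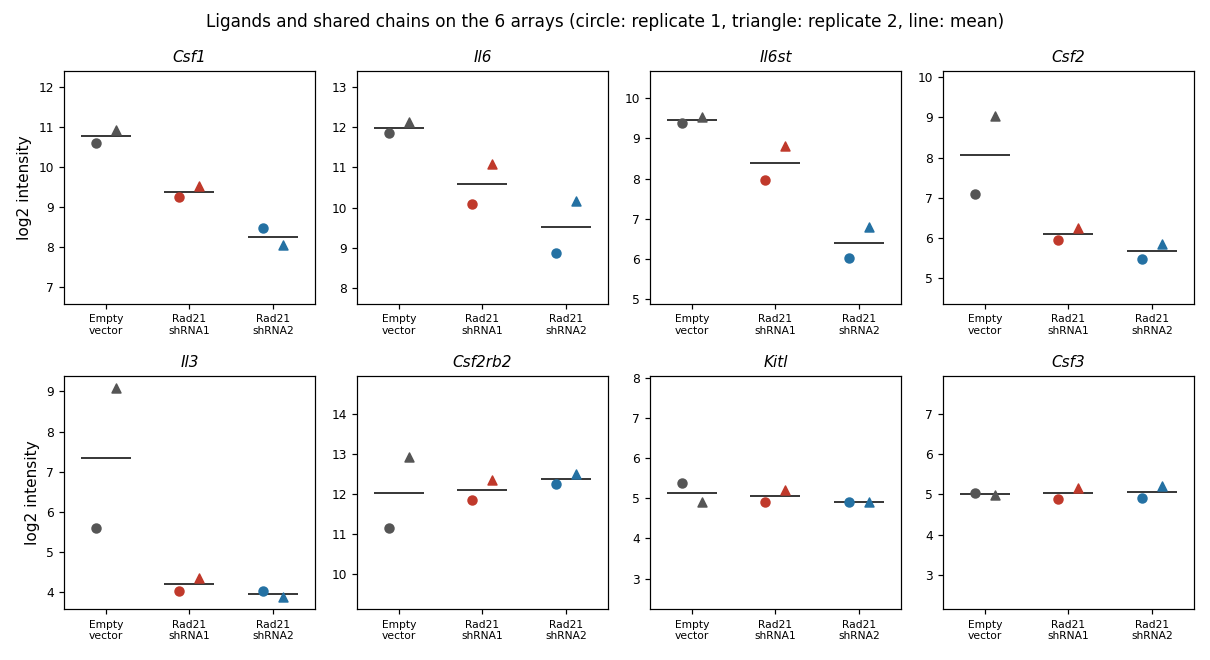
Log2 intensity (vertical axis, 5.8 units tall in every panel) of ligands and shared receptor chains on the 6 arrays by group, with circles for replicate 1, triangles for replicate 2 and a line at the mean. Csf1, Il6, Il6st, Csf2 and Il3 are lower on every shRNA array than on both controls, and Kitl and Csf3 overlap.

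Other receptors and signalling genes were counted from lists. Over all genes 2.13% passed with both shRNAs (0.734% higher and 1.4% lower), and 16.7% had an unadjusted p under 0.05. Of 26 receptors of the same or related families, 1 rose and 2 fell with both shRNAs. Il2ra, the IL-2 receptor alpha chain, rose by 2.26 ± 0.27 (adjusted p = 0.0228, from 5.14 and 5.18 on the controls to between 6.89 and 8.12), and its call was lost without shRNA1 replicate 1 (0.0918) or 2 (0.0820) and shRNA2 replicate 1 (0.0737). This is the brightest Il2ra probe set, and the mean of its probe sets gave 1.34 (adjusted p = 0.0313), while the call was lost with the offset of 50 (1.38, 0.105) and with array weights (0.157). Il18r1, an IL-18 receptor chain, fell by 1.69 (adjusted p = 0.0109), and it missed the threshold without shRNA1 replicate 1 (0.0635) and shRNA2 replicates 1 (0.0798) or 2 (0.0777). None of 10 JAK and STAT genes passed, with 1 at an unadjusted p under 0.05, Stat2 (-0.49 ± 0.14, adjusted p = 0.174, -0.20 with the mean of its probe sets, and past the threshold without empty-vector replicate 2). None of 20 adaptors and kinases passed, with 4 at an unadjusted p under 0.05, against 16.7% of all genes. The kinase gene Fyn had the smallest p among these (-0.91 ± 0.17, adjusted p = 0.0608, and 0.0254 with the mean of its probe sets, range 0.0241 to 0.257), and it passed without empty-vector replicate 1 (-1.10) or 2 (-0.72).

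Of 18 genes induced by cytokine receptor signalling, 1 rose, 2 fell and 15 did not pass, with a median difference of -0.65. Over all genes 0.734% rose and 1.4% fell. The one that rose was Il2ra. Ccnd1, cyclin D1, fell by 1.95 (adjusted p = 0.0109), from 8.30 and 8.27 on the controls to between 6.13 and 6.65, and it missed the threshold without shRNA1 replicate 1 (0.0564) and shRNA2 replicates 1 (0.0655) or 2 (0.0699). Junb, an AP-1 subunit, fell by 1.04 (adjusted p = 0.0395, and 0.0514 with the replicate number as a block, range 0.00471 to 0.193). Of 28 negative regulators 1 fell and none rose. This was Dusp6, a phosphatase that is induced by ERK and shuts it off, which fell by 0.89 (adjusted p = 0.0412, and 0.0544 with the block, range 0.0135 to 0.193). The calls of Junb and Dusp6 were lost without any single shRNA array, with adjusted p from 0.112 to 0.193. Both were also lost without the dimmer 50% of genes (0.0523 and 0.0592), with the offset of 50 (0.0656 and 0.0508) and with array weights (0.134 and 0.182), and Junb with quantile normalization (0.0519).

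The remaining lists held few calls with both shRNAs, where 2.13% of all genes passed and 16.7% had an unadjusted p under 0.05. Of 10 shedding, clotting and turnover genes none passed, with 4 at an unadjusted p under 0.05, and the protease gene Furin differed by -1.27 ± 0.35 (adjusted p = 0.157, -0.64 without empty-vector replicate 1 and -1.90, past the threshold, without replicate 2). Of 20 transcription factors known to act at receptor genes 1 rose, Hoxa9, by 3.29 ± 0.32 (adjusted p = 0.0138, and 0.0585 to 0.0832 without any single shRNA array). Of 24 other stem and progenitor surface molecules none passed in limma, with 9 at an unadjusted p under 0.05, and the adhesion molecule gene Esam differed by -0.94 ± 0.18 (adjusted p = 0.0674, and it passed without empty-vector replicate 2). Summed intensities of 10 lymphoid genes were 1304 and 4713 on the controls and 777 to 2734 on the shRNA arrays. Their mean log2 intensity was low and nearly flat, at 4.96 and 5.16 on the controls and 4.88 to 5.16 on the shRNA arrays. Sums of 10 stromal and endothelial genes ran from 562 to 704 on all arrays. The sum of 11 dendritic cell genes was 4377 and 5715 on the controls and 2041 to 3513 on the shRNA arrays.

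The pattern of each receptor over the 6 arrays was compared with that of the 3064 genes that span more than 1 log2 unit, as a description, since the arrays fall into 3 groups. Kit was most like Ikzf4 (Pearson r = 0.995 over 6 arrays), Akr1c12 (0.985) and Slc24a3 (0.979). Cd34 was most like Igfbp4, Rfc5 and Bzw2, each at 0.988 or 0.989. Csf1r was most like Tmem38b (0.993), Il3ra most like Acss1 (0.998), Csf3r most like Hhex (0.999), Il6ra most like Selenbp1 (0.971) and Procr most like Klf2 (0.976). Csf2ra and Csf2rb, whose patterns are set by the low value on empty-vector replicate 1, were most like Psmd8 (0.997) and Tmbim4 (0.998).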

How the data were processed

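RNA of 6 samples was hybridised to Affymetrix arrays. Per the submitters' processing notes the authors made the deposited intensity values with RMA, which corrects background, quantile-normalizes and summarises probes. No source used here gives its version. The deposited values were linear (4.96 to 20614.6), so log2 was taken, with no pseudocount or filter, and the number of arrays limits the precision. Probe sets were named from the platform annotation: 20393 carried 1 gene, 691 several and 1606 none, and 64 control sets were left out. The brightest probe set stood for each of 12393 genes.

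limma 3.58.1 (R 4.3.3) fitted the 3 groups together with lmFit and eBayes (3 residual and 2.91 prior degrees of freedom), two-sided, with Benjamini-Hochberg adjusted p over all genes and a threshold of 0.05. A second fit used every probe set. The fit assumes 1 spread for all groups, but replicates lay 0.321 (root mean square) from the empty-vector mean against 0.151 and 0.141 for the shRNAs. Samples were grouped and numbered by their titles. Differences between replicates 1 and 2 correlated across genes at r = 0.578 between the shRNAs. With empty vector they correlated only weakly, at 0.199 for shRNA1 and 0.148 for shRNA2. The main fit was therefore left unpaired, and the replicate number was tried as a block. Other alternatives covered probe sets, filters, normalization, an offset of 50, variance models, array weights, groups in the fit and each array left out.

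The receptors and gene lists were chosen with earlier results of these data known. Named genes were all receptors, Rad21, the ligands and shared chains of the receptors, and genes from each list that is not a cell type marker list. From such a list these were up to 3 genes past the threshold with the smallest p, or else the 1 with the smallest p. Cpa3 and Fcer1a were named from the mast cell markers outside this rule. Figures used Python 3.11.15 and matplotlib 3.10.9. Promoter windows came from a RefSeq table of GRCm38.p6.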

Additional observations from a re-analysis of the deposited data

How the results depend on the processing

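Of 694 values of a receptor in a comparison under an alternative, 634 kept their direction and side of the threshold, 24 passed anew, 15 lost their call and 21 turned sign. Of 432 for the other named genes, 360, 16, 51 and 5 did so. Receptor genes called with both shRNAs (1) were 0 with plain _at probe sets (Kit has none), without the dimmer 50% of genes, with quantile normalization, the offset of 50 or array weights, and 0 to 7 with each array left out. With shRNA1 (0) they were 0 to 6 with an array left out. With shRNA2 (1) they were 0 with the offset, array weights or only the groups compared, 2 with the replicate block (Cd34 and Kit) and 0 to 7 with an array left out. Between the shRNAs (0) there was 1 with array weights, Cd34. Receptor probe sets called (0) were 1 with the replicate block for both shRNAs and for shRNA2, and with an array left out 0 to 10, 0 to 9 and 0 to 10. Among the named genes the block changed no call other than those given beside Kit, Rad21, Il6, Junb and Dusp6. All genes called with both shRNAs (264) were 173 with plain _at probe sets, 113 without the dimmer 50%, 75 with the offset, 51 with array weights and 3 to 3121 with an array left out. With shRNA1 (29) these were 17, 3, 1 and 8, then 47 with median centring, 59 with an intensity trend, 0 with only the groups compared and 0 to 2534. With shRNA2 (351) they were 180 without the dimmer 50%, 136 with the offset, 160 with array weights, 120 with only the groups compared and 0 to 2941. Between the shRNAs (0) they were 98 with array weights, 44 with only the groups compared and 0 to 44. Against empty vector, the highest counts were reached without empty-vector replicate 2. Fits of only the groups compared give nothing else for both shRNAs, which use all 3. Signs turned for Csf2ra with shRNA2 by the mean of probe sets (-0.053), Csf2rb between shRNAs by median centring (-0.013) and Flt3 with both by quantile normalization (0.0064). With an array left out, values with both shRNAs, shRNA1 and shRNA2 ran from -0.39 to 1.72, -0.20 to 1.91 and -0.59 to 1.52 for Csf2ra, from -0.66 to 1.43, -0.65 to 1.44 and -0.67 to 1.43 for Csf2rb, and from -0.10 to 0.097, -0.074 to 0.13 and -0.16 to 0.096 for Flt3. Between the shRNAs they ran from -0.020 to 0.049 for Csf2rb, -0.33 to 0.062 for Csf3r, -0.069 to 0.19 for Flt3 and -0.67 to 0.051 for Kit. They ran from -0.33 to 0.18 for Procr with shRNA1, and with both shRNAs from -0.68 to 1.07 for Csf2rb2, -0.042 to 0.10 for Csf3 and -0.39 to 0.081 for Kitl. The cause was not tested. With 2 arrays a group and unequal spread, the number of arrays limits every call.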
